A study of Bos taurus with 18 samples.

Results

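Clonal populations of bovine bone marrow mesenchymal stem cells (MSCs) differed in how many cells they gave, and the number of cartilage pellets made from each clone was the record of that difference. The clones that filled 1 pellet, because few cells were left, were F, I, K, M, P and Q, and those that filled 3 pellets were B, C, E, G, H, J, L and O. These 14 clones were taken by the pellet number given in the study's own description, out of 18 sequenced libraries. Clone D (2 pellets), clones A and N (no pellet number used here) and the uncloned heterogeneous population (Het) were left out of the comparison. All 14 clones came from the marrow of juvenile cows, with no genetic change or treatment named for any of them, and their RNA was taken from monolayer culture in basal medium at passage 1. The pellets were formed later, at passage 2, from 200000 cells each, and were held for 21 days in medium with TGFβ, so the RNA preceded any induction of cartilage. Each clone was 1 colony with 1 library, and no culture was repeated. The spread within a group was therefore the spread between clones. Pellet number is a coarse measure of yield, with no value between the steps, and it does not tell slow division from cell loss or from a small colony at the time of harvest.

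A cell that divides passes through G1, copies its DNA in S phase and separates the copies in mitosis, and each step has its own transcripts. MCM helicase subunits and PCNA, the sliding clamp of the polymerases, serve replication, while MKI67 (Ki-67), TOP2A, cyclin B1 and the kinase PLK1 serve mitosis and are nearly absent from resting cells. Inhibitors of cyclin-dependent kinases, such as p21 (CDKN1A) and p16 (CDKN2A), and some targets of p53 hold cells out of the cycle. MSC clones from one marrow are known to vary in how long they keep dividing, and enlarged lysosomes, secreted factors and loss of lamin B1 are classical features of cells that have stopped for good.

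Reads on genes ranged from 13443606 to 18458157 per clone, with a mean of 15486228 ± 1954380 (SD, n = 6) in 1-pellet clones and 14843934 ± 1001621 (SD, n = 8) in 3-pellet clones, and depth did not differ beyond the spread (exact permutation test, two-sided, p = 0.442). At this depth 3 reads, taken as the most that a count of 0 allows, came to 0.163 to 0.223 CPM (reads of a gene per 1000000 reads on genes in its library). Several libraries stood apart from the rest. Clones L, G, C and O, all of the 3-pellet group, had the 4 highest MKI67 levels of the whole series. Clones C and O were nearer to each other than any other pair, with a chi-square per gene of 4.73 over 11406 genes against 21.4 for the next pair, E and F. Their counts still differed by more than sampling noise, which would give a value near 1. Technical error was not measured, so this does not tell 2 clones from 2 cultures of 1 clone. They were kept as 2 clones because the titles name them so. Clones P and Q, of the 1-pellet group, carried most of the reads of several cartilage genes. Many results, but not all, are given with and without these clones. Where no such value is given, stability was not shown.

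Genes were tested with edgeR's quasi-likelihood test, and log2 fold changes are 1-pellet minus 3-pellet clones, so that positive values mark genes higher in the 1-pellet clones. Of 10968 genes tested, 0 passed an adjusted p of 0.05 (0% of genes), and the smallest adjusted p was 0.261, shared by 1087 genes. Before adjustment, 1941 genes had a p under 0.05. Of these, 879 were higher in 1-pellet clones (8.01% of genes) and 1062 were lower (9.68%). limma-voom also called 0 genes, with 1659 at an unadjusted p under 0.05, while DESeq2 called 55, of which 32 were higher and 23 lower, with 2188 at an unadjusted p under 0.05. The counts below use the unadjusted p as a description, and no gene among them was called by edgeR. They are to be read against these shares over all genes. The median log2 fold change over all genes was 0.02.

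Among the gene lists, mitosis and DNA replication had the largest shares of genes with an unadjusted p under 0.05. That difference came from only some of the 3-pellet clones, and MKI67 itself ranked only 561 by p among all genes tested. MKI67 was at 19.4 CPM in the lowest, 68.5 in the median and 208 in the highest 1-pellet clone, against 45.5, 377 and 650 in 3-pellet clones. Within the 3-pellet group, clones G, C, O and L held 547, 561, 625.3 and 650 CPM, while B, E, J and H held 45.5, 52.6, 92.2 and 207. The latter 4 lay inside the range of the 1-pellet clones, whose highest was clone I. The log2 fold change of MKI67 was -1.79 ± 0.64 (SE), with an adjusted p of 0.261 from edgeR. On log2 CPM the means differed by -1.56, and an exact permutation test over all regroupings of the clones (two-sided) gave p = 0.0756. In these bulk libraries a larger share of dividing cells and more transcript per dividing cell cannot be told apart.

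**Figure D1:**
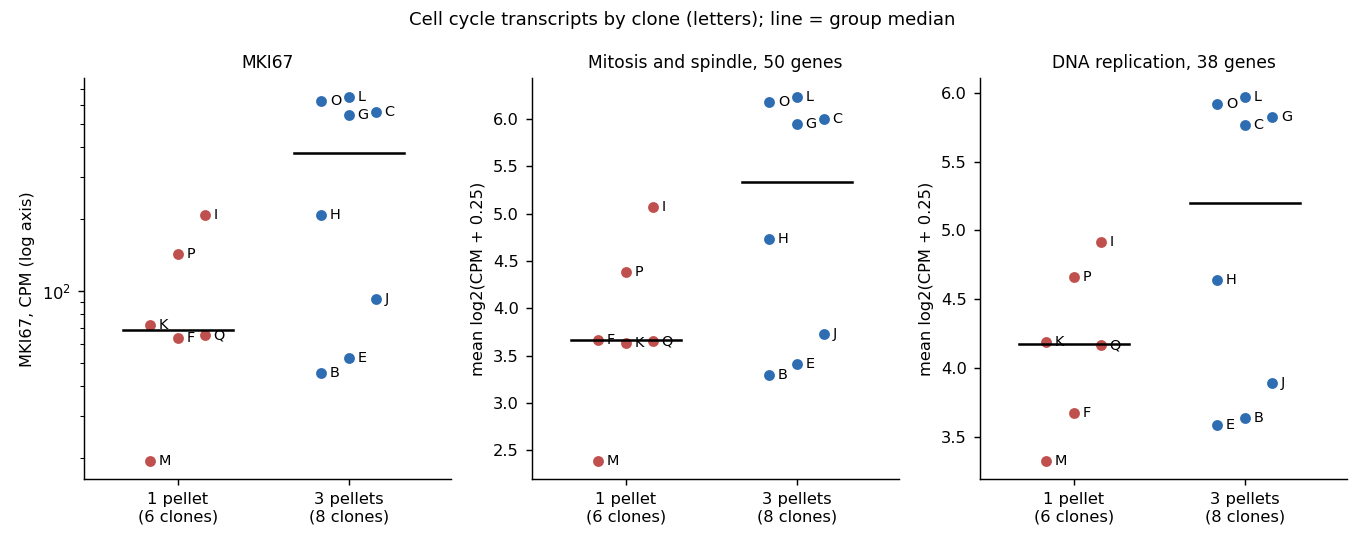
MKI67 in CPM on a log axis (left), and the mean log2(CPM + 0.25) of 50 mitosis and spindle genes (middle) and 38 DNA replication genes (right), for the 6 clones with 1 pellet (red) and the 8 clones with 3 pellets (blue). Each point is 1 clone and each line a group median; L, G, C and O sit above every 1-pellet clone in all 3 panels, and B, E, H and J do not.

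Genes of mitosis and the spindle differed in the same direction as MKI67. All 50 tested of the 52 listed had a lower mean in 1-pellet clones, with a median log2 fold change of -1.35, and 49 of them had an unadjusted p under 0.05. The exception was CKS1B, a subunit of the cyclin-dependent kinases, at -0.65. PLK1 ran from 6.55 to 38.5 CPM with a median of 13.2 in 1-pellet clones, and from 10.7 to 127 CPM with a median of 52.6 in 3-pellet clones. CCNB1, the cyclin that starts mitosis, had medians of 8.58 and 37.8 CPM, and TOP2A, the topoisomerase that untangles sister chromosomes, had medians of 44.9 and 163 CPM. The ranges of the groups overlapped for each of the 50 genes. Clones C, L and O exceeded every 1-pellet clone in 50 of the 50 genes and clone G in 49, whereas H did so in 1 and B, E and J in 0.

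DNA replication genes were high in the same clones. Of 38 genes tested (39 listed), 28 had an unadjusted p under 0.05 and all 28 were lower in 1-pellet clones, with a list median of -0.95. The largest difference on that list was in RRM2, the small subunit of ribonucleotide reductase that makes deoxynucleotides, at -1.82 ± 0.73 (SE). MCM2 had medians of 43.2 CPM in 1-pellet and 142 CPM in 3-pellet clones, and PCNA 30.4 and 73.5 CPM. RPA1, which coats single-stranded DNA, stood at 0.07, and it was 1 of 10 replication genes with a p above that limit. Clone L exceeded every 1-pellet clone in 38 of the 38 genes, G in 37, and C and O in 36 each, against 2 for H and 0 for B, E and J. Among 20 genes of the G1/S transition, 8 were lower at that threshold and 0 higher. CCND1, the cyclin that responds to growth factors in G1, did not share the pattern, with medians of 209 and 213 CPM and a log2 fold change of 0.26 ± 0.22 (SE).

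L, G, C and O are the clones with the highest MKI67 and all belong to 1 group, so leaving them out had to lessen the difference in cycling genes. The median of the mitosis list was 0.09 without them, with 36 of 50 genes positive, and that of the replication list was 0.20, with 0 genes of either list lower at an unadjusted p under 0.05. MKI67 itself was at -0.09 ± 0.55 (SE) between the 6 clones with 1 pellet and the remaining 4 with 3 pellets. Across all genes only 251 (2.28%) had an unadjusted p under 0.05 in that fit, 142 higher and 109 lower, and edgeR called 0. Leaving out single clones moved the mitosis count between 25 (without M, O or Q) and 50, and the replication count between 3 (without F, M or O) and 32. Without P and Q the counts were 10 and 9, with medians of -1.36 and -1.03, in a fit where 636 of 11067 genes (5.75%) were higher and 853 (7.71%) lower at that threshold. limma-voom gave 8 of 50 mitosis and 1 of 38 replication genes at the same threshold, with medians of -1.20 and -0.74. By limma-voom 773 of 10968 genes were lower at that threshold.

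**Figure D2:**
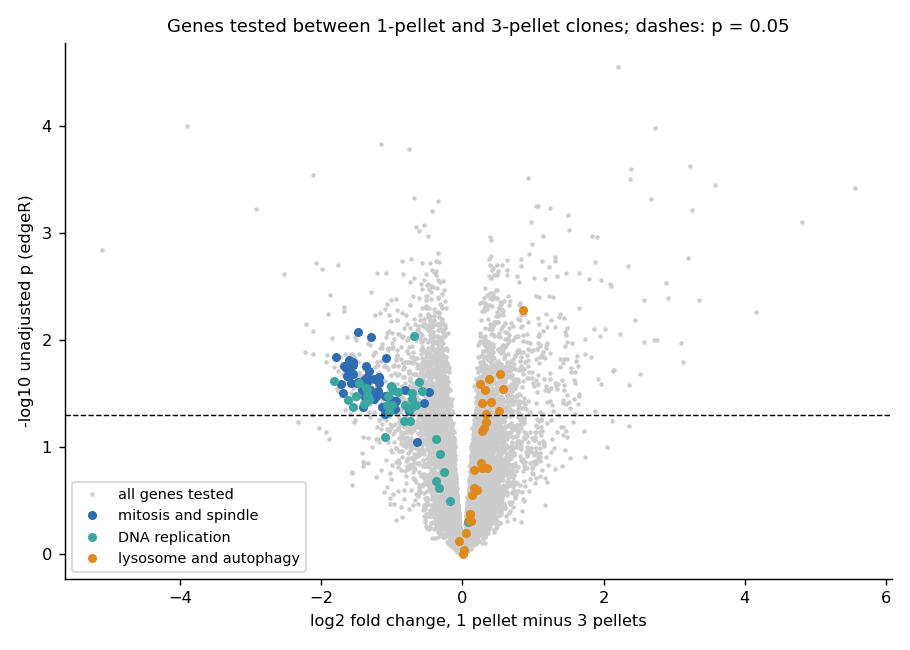
Log2 fold change, 1-pellet minus 3-pellet clones (x axis), against -log10 of the unadjusted edgeR p (y axis) for the 10968 genes tested (grey), with 3 gene lists in colour and a dashed line at the unadjusted threshold of 0.05. Mitosis and replication genes form one group on the lower side at modest p, and lysosome and autophagy genes lie on the higher side at smaller fold changes.

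The list that joins inhibitors of cyclin-dependent kinases with p53 targets leaned the other way, by less. Of 24 tested inhibitors of cyclin-dependent kinases and p53 targets, 19 had a higher mean in 1-pellet clones, with a median of 0.39, and 4 were higher and 1 lower at an unadjusted p under 0.05. FAS, the death receptor, was at 6.39, 14.3 and 22.1 CPM (lowest, median and highest) in 1-pellet clones and at 5.72, 6.64 and 7.61 CPM in 3-pellet clones. The 1-pellet clones I and M lay within the 3-pellet range for FAS, and the other 4 lay above it. Its log2 fold change was 1.07 ± 0.25 (SE), and 0.73 ± 0.24 without P and Q. MDM2, the ligase that degrades p53, was at 0.45 ± 0.14 (SE), BTG2 at 0.39 ± 0.16 and RRM2B, the p53-induced reductase subunit, at 0.47 ± 0.21. The lower one was the kinase PLK3, at -0.50. CDKN1A was at 204 and 163 CPM in the medians and 0.42 ± 0.21 (SE), and CDKN2A at 61.1 and 37.8 CPM and 0.50 ± 0.24, with adjusted p of 0.299 and 0.284 from edgeR, and neither was under 0.05 before adjustment. Without L, G, C and O the list median was 0.12, with 1 gene higher.

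The list of senescence-associated secreted factors and markers held more members lower than higher in 1-pellet clones. Of 21 tested, 8 were lower there at an unadjusted p under 0.05 and 1 was higher, with a median of -0.64. The higher one was GDF15, a stress-induced cytokine, at 6.28, 16.1 and 19 CPM in 1-pellet and 2.42, 3.41 and 13.6 CPM in 3-pellet clones. LIF, a cytokine of the IL6 family, was lower, with 0.827, 1.18 and 3.41 CPM against 1.94, 7.11 and 37.5 CPM. Its highest levels were in clones O and C. PLAU, the urokinase that activates plasmin, was at -0.86 ± 0.23 (SE) and its receptor PLAUR at -2.23 ± 0.79. LMNB1 (lamin B1), whose transcript is lost in senescent cells and which also follows the cycle, was at -1.59 ± 0.57 (SE) and at -0.03 ± 0.45 without L, G, C and O. IL6 had near-equal medians of 13.1 and 12.6 CPM but a log2 fold change of -1.35 ± 0.87 (SE), with 117 and 92.1 CPM in the 3-pellet clones O and C. Of 23 apoptosis genes, 0 had an unadjusted p under 0.05.

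Lysosome and autophagy genes had slightly higher levels in 1-pellet clones. Of 28 tested, 27 had a positive log2 fold change, with a median of 0.27, and 10 were higher and 0 lower at an unadjusted p under 0.05. CTSB, a lysosomal cysteine protease, was at 573, 1006 and 2025 CPM in 1-pellet clones and at 520, 699 and 867 CPM in 3-pellet clones. Its highest levels were in P and Q, and its log2 fold change of 0.86 was 0.34 ± 0.20 (SE) without them. GLB1, the beta-galactosidase behind the usual senescence stain, was at 340, 381 and 573 CPM against 204, 280 and 436 CPM. CTSD had a log2 fold change of 0.58 ± 0.24 (SE), and NPC2, which carries cholesterol out of lysosomes, 0.37 ± 0.15. CTSK, the collagen-degrading cathepsin listed with the proteases, was at 1899 and 1064 CPM in the medians and 0.71 ± 0.24 (SE). These genes were low in the same clones that were high for mitosis: C, G and O were below every 1-pellet clone in 16, 16 and 17 of the 28 genes and L in 8, against 2 to 5 for B, E, H and J. Without those 4 clones the median was 0.05 and 0 genes were higher at that threshold, and with MKI67 as a covariate 1 was. What part cycling has in this difference was not tested beyond that.

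Ribosome biogenesis genes had slightly lower means in 1-pellet clones. Of 24 genes that make ribosomal RNA and assemble ribosomes, 23 had a lower mean in 1-pellet clones, with a median of -0.28 and 10 lower at an unadjusted p under 0.05. FBL (fibrillarin), which methylates ribosomal RNA, had medians of 49.8 and 102.7 CPM and a log2 fold change of -0.74 ± 0.24 (SE). The median without L, G, C and O was -0.02. Of 64 cytosolic ribosomal protein genes 54 were positive, with a median of 0.15, but only 3 (4.69%) were higher at that threshold, under the share over all genes, and RPL3 and RPS3 were at 0.03 and 0.04. Among 25 genes of the unfolded protein response and the ATF4 pathway, 2 were higher and 2 lower. This was 8% in each direction, near the shares over all genes (8.01% and 9.68%). ATF4, the factor translated under amino acid and ER stress, was at 551, 570 and 622 CPM in 1-pellet clones and 329, 467 and 535 CPM in 3-pellet clones, and its target DDIT3 (CHOP) at 63.1, 93.5 and 118 against 22.8, 37.0 and 85.9 CPM. The 2 groups did not overlap for ATF4. Its log2 fold change of 0.38 ± 0.15 (SE) came to 0.11 ± 0.09 without L, G, C and O. Of the same list, ASNS was at 0.31 ± 0.21 (SE) and HSPA5 at 0.07 ± 0.16, and the list median was 0.09.

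TGFβ and BMP genes were split in direction. TGFβ drives MSCs to form cartilage matrix and BMPs act through SMAD1, SMAD5 and SMAD9. Of 32 genes tested, 6 were higher (18.8%, against 8.01% of all genes) and 3 lower (9.38%, against 9.68%) at an unadjusted p under 0.05. The median was 0.02. TGFB1 was at 48.9, 59.0 and 92.2 CPM in 1-pellet clones and 61.1, 117 and 240 CPM in 3-pellet clones, while the ligand TGFB2 was at 38.3, 86.8 and 131 CPM against 10.4, 32.6 and 71.7 CPM. BMP4 followed TGFB2, with medians of 48.5 and 29.2 CPM and 0.91 ± 0.30 (SE). It was at 0.56 ± 0.30 without P and Q and at 0.48 ± 0.28 without L, G, C and O. BMP6 (1.07), TGFB3 (0.61) and the latent TGFβ binding proteins LTBP4 (0.81) and LTBP1 (0.67) made up the rest of the higher 6. The inhibitor SMAD7 was at -0.66 ± 0.16 (SE), and the BMP target ID1 was at 6.05 and 19.3 CPM in the medians and -1.87 ± 0.55. SMAD9, a receptor-activated SMAD of BMP signalling that was not on the list, was at 4.52, 5.43 and 7.32 CPM in 1-pellet clones and 6.83, 14.7 and 18.5 CPM in 3-pellet clones. The receptors TGFBR1 and TGFBR2 and SMAD3 had log2 fold changes of 0.13, 0.59 and 0.02. TGFBR2 was at 88.8 and 84.0 CPM in P and Q and at most 39.4 CPM elsewhere, and its log2 fold change was 0.33 without P and -0.10 without both. Without L, G, C and O, 1 gene of the list was higher and 1 lower, and TGFB1 was at -0.21 ± 0.16 (SE).

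Growth factors and Wnt genes showed few differences. Of 30 growth factors and receptors tested 2 were higher (VEGFB and KITLG, the ligand of KIT) and 1 lower (TGFA, a ligand of EGFR) at an unadjusted p under 0.05. These shares, 6.67% and 3.33%, were under those over all genes. PDGFRA, PDGFRB and EGFR, receptors through which serum drives MSC growth, had log2 fold changes of -0.08, -0.18 and 0.01. PDGFRA was at 648 and 799 CPM in P and Q, and its log2 fold change was -1.10 ± 0.39 (SE) without them. FGF2 was at 4.53 and 1.89 CPM in the medians and 0.70 ± 0.53 (SE). Among 29 Wnt genes 1 was higher (3.45%) and 2 lower (6.9%), also under the shares over all genes. DKK1, a secreted Wnt antagonist, was at -2.13 ± 0.998 (SE), and at 1.14 without L, G, C and O. The YAP and serum response list held more lower genes. Of its 26 genes, 7 were lower (26.9%, against 9.68% of all genes) and 1 higher (3.85%, against 8.01%). EGR1, the immediate early factor, had medians of 72.8 and 208 CPM, and the YAP targets CTGF and CYR61 had log2 fold changes of 0.61 and 0.08. ATF3 was the higher one, at 0.58 ± 0.25 (SE).

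The largest differences in cartilage genes of these undifferentiated cells rested mainly on P, Q or both. Of 23 chondrocyte genes tested (35 listed), 6 were higher and 0 lower at an unadjusted p under 0.05, with a median of 0.18. PRG4 (lubricin), the lubricant of the joint surface, was at 63.8 CPM in P and 162 CPM in Q and at most 4.65 CPM in any other of the 14 clones. CILP was at 26.1 CPM in P, 18.8 CPM in Q and at most 4.07 CPM elsewhere, and COMP at 41.1 CPM in Q and at most 6.24 CPM elsewhere. Without P and Q the log2 fold changes of these 3 genes were 0.38 ± 0.60, 1.63 ± 0.59 and 1.20 ± 0.64 (SE), against 4.81, 3.58 and 2.89 with them, and the list median turned to -0.36 with 5 genes lower and 2 higher. Without L, G, C and O it was 0.50, with 9 genes higher, in a fit where 142 of 11021 genes were higher at that threshold. The direction of the list thus depended on which clones were kept.

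The genes of the main cartilage matrix did not separate the groups. ACAN, the core protein of aggrecan, was at 42.2, 118 and 1348 CPM in 1-pellet clones and 19.5, 113 and 1437 CPM in 3-pellet clones, a log2 fold change of 0.03 ± 1.02 (SE). COL2A1 was at -0.85 ± 1.09 and SOX9, the transcription factor of chondrocytes, at -0.39 ± 0.49. Without L, G, C and O, ACAN was at 2.62 ± 1.08, COL2A1 at 2.25 ± 0.93 and SOX9 at 0.50 ± 0.55 (SE). Without P and Q they were at -2.26 ± 1.12, -2.45 ± 1.32 and -1.21 ± 0.52. COL11A1 was among the higher 6, with 2356, 3931 and 6884 CPM against 1682, 2724 and 3965 CPM. Both groups held clones with little and clones with much ACAN, more than 10 times apart. MMP13, the collagenase, was near the limit of detection, with at most 8 reads in any clone, and was not tested.

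Of 39 structural genes of fibrillar matrix and crosslinking 5 (12.8%, against 8.01% of all genes) were higher in 1-pellet clones and 0 lower at an unadjusted p under 0.05, with a median of 0.23, which was 0.00 without L, G, C and O and 0.09 without P and Q. LUM (lumican) was at 1284, 1833 and 2536 CPM against 1044, 1257 and 1516 CPM, and THBS1 (thrombospondin 1) at 3938, 9405 and 20454 against 2992, 5274 and 8410 CPM. P4HA3, a collagen prolyl hydroxylase subunit, THBS2 and EFEMP1 were the others. COL1A1, COL3A1, FN1 and TNC had log2 fold changes of 0.12, 0.69, 0.54 and -0.12. COL3A1 was at 0.15 without clone M, and FN1 at 0.22 without P and -0.16 without P and Q. Of 33 enzymes that build and sulfate glycosaminoglycans 6 were lower and 0 higher. These were PAPSS2, which makes the sulfate donor, at -1.09 ± 0.40 (SE), and CHSY1, CHST14, NDST1, EXT1 and HAS3. PAPSS2 was at -0.20 ± 0.17 without L, G, C and O.

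Metabolic, positional and interferon lists differed in how their shares compared with those over all genes (8.01% higher and 9.68% lower). Of 26 glycolysis and hypoxia genes 4 (15.4%) were lower (PKM, PGAM1, LDHA and ENO1) and 0 higher at an unadjusted p under 0.05. Without P and Q 13 were lower, with a median of -0.40, in a fit where 853 of 11067 genes were lower. Of 36 nuclear respiratory chain genes 1 was lower (2.78%), and of 22 cholesterol and lipid synthesis genes 1 was higher (4.55%), both under the shares over all genes. HOX genes, which keep the body position of a cell's origin, had a median of 0.41 with 20 of 21 positive. At that threshold 3 (14.3%) were higher (HOXC6, HOXC8 and HOXB6), and the median was 0.06 without P and Q. HOXC8 had 1.501, 4.26 and 11.5 CPM against 1.001, 2.22 and 3.68 CPM. Of 17 interferon response genes 4 (23.5%) were higher (IFI6, OAS1Y, IRF9 and DDX58) and 1 (5.88%) lower (ISG20). IFIT3 had a log2 fold change of 0.93 with all clones and -0.63 without P and Q.

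Markers of the cell type gave few differences between the groups. THY1, CD44 and PDGFRB, surface markers of MSCs, had log2 fold changes of -0.11, -0.17 and -0.18, and THY1 was at no less than 226 CPM in any of the 14 clones. ENG and NT5E, both usual MSC markers, had lower means in 1-pellet clones, at -0.33 ± 0.14 and -0.36 ± 0.12 (SE). Of 23 MSC surface and stromal genes 11 had a positive and 12 a negative log2 fold change, with a median of -0.03. At an unadjusted p under 0.05, 3 were lower (13%, against 9.68% of all genes) and 0 higher. The osteoblast list had 0 of 13 genes with an unadjusted p under 0.05, the adipocyte list 1 higher and 1 lower of 13, the contractile list 1 and 1 of 22, and the stem and pluripotency list 1 lower of 10. For these lists the shares were near or under those over all genes. The endothelial CDH5 and the erythroid HBB had 0 reads in every clone. The widely expressed SDHA also had 0 reads in every clone and XBP1 at most 1, so a 0 in these files may come from the annotation or counting and does not bound expression. PECAM1 and TEK, the other endothelial genes named, reached 2.93 and 2.21 CPM, with log2 fold changes of -0.71 ± 0.44 and 1.001 ± 0.401 (SE). TEK was at 0.48 ± 0.42 without P and Q. The leukocyte marker PTPRC reached 0.744 CPM at most, and the macrophage receptor CSF1R was at 0.207 to 0.799 CPM in 1-pellet and 0.423 to 1.56 CPM in 3-pellet clones. The summed level of the 11 leukocyte and macrophage genes was 12.7 to 64.6 CPM in 1-pellet clones and 19.8 to 33.9 CPM in 3-pellet clones, with 4 of the 11 tested, and most of it was CTSS, a lysosomal cathepsin. The part of other cell types in these results was not tested.

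**Figure D3:**
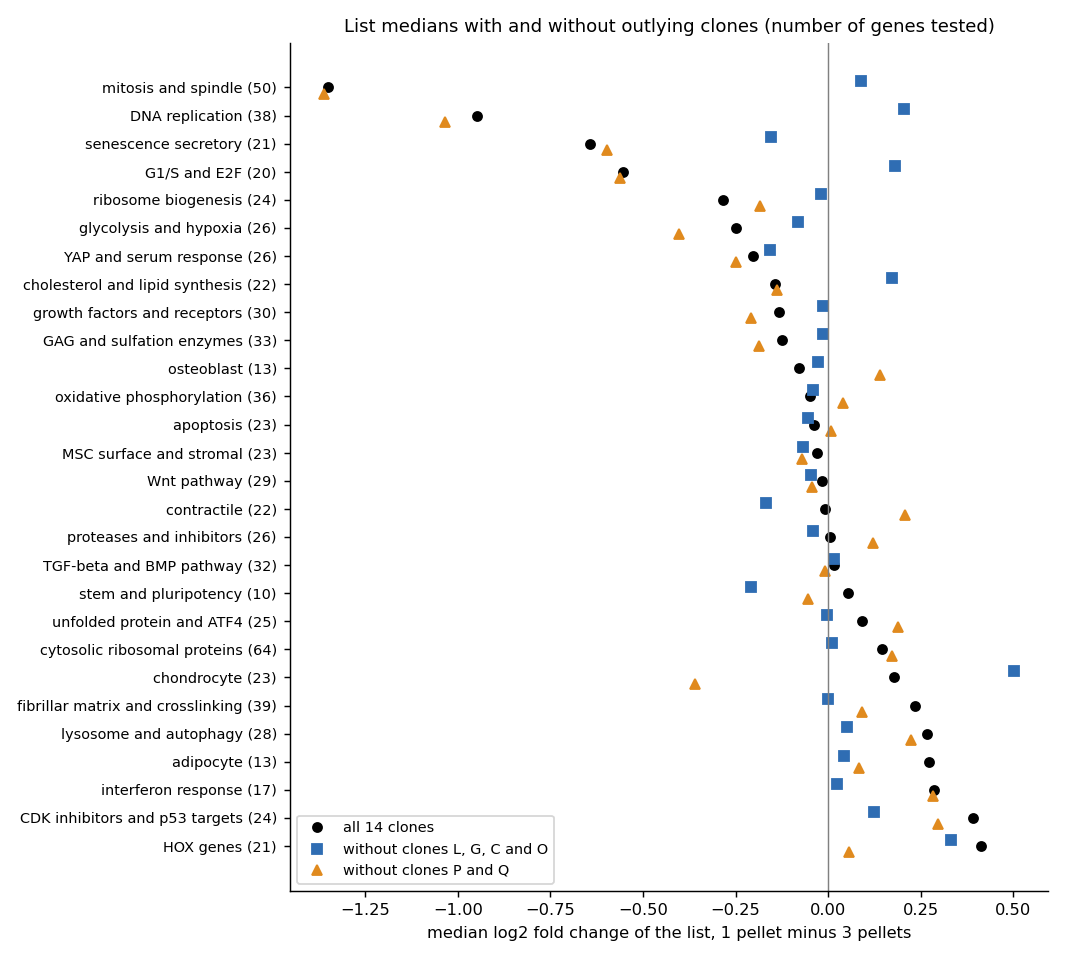
Median log2 fold change of each gene list with at least 10 genes tested, 1-pellet minus 3-pellet clones, over all 14 clones (black circles), without L, G, C and O (blue squares) and without P and Q (orange triangles). The cell cycle lists sit near 0 or above it without L, G, C and O, and the chondrocyte list changes sign between the fits without the 4 and without the 2 clones.

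The genes with the smallest p were mostly outside these lists. SPON1 (F-spondin), a secreted matrix protein, had the smallest of all, with 4.88, 19.4 and 41.2 CPM in 1-pellet clones and 3.10, 3.92 and 7.33 CPM in 3-pellet clones. In clone M it was within the 3-pellet range and in clone I, at 7.90 CPM, just above it, while in F, K, P and Q it was at 19.2 CPM or more. Its log2 fold change of 2.21 ± 0.37 (SE) was 1.99 ± 0.53 without L, G, C and O and 2.22 ± 0.43 without P and Q. DESeq2 gave it an adjusted p of 4.2e-05, and edgeR called it only when clone M was left out (2.40, adjusted p = 0.0275). Over all alternatives its adjusted p ran from 4.2e-05 to 0.999, the highest without L, G, C and O. TTR (transthyretin), a carrier of thyroid hormone and of retinol-binding protein, was at 7.03, 12.6 and 56.8 CPM against 0.744, 2.80 and 7.72 CPM, and only clone B of the 3-pellet group reached the lowest 1-pellet clone. Its log2 fold change was 2.73 ± 0.52 (SE), and 2.28 ± 0.65 without L, G, C and O.

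Others among the first 12 on the higher side rested on P and Q. MGP, the matrix Gla protein that inhibits calcification, was at 390 CPM in P, 651 CPM in Q and 46.6 CPM in K, and at 13.8 CPM or less in all other clones of both groups. Its log2 fold change was 5.56 ± 1.21 (SE) with all clones and 1.99 ± 0.84 without P and Q. LRRN3 went from 2.67 to 0.92 in the same way. TMOD1, which caps the slow end of actin filaments, kept 1.94 ± 0.54 without P and Q and 2.19 ± 0.71 without L, G, C and O, and MALL, a raft membrane protein, kept 2.17 and 3.97. FAM180A was at 2.37, the deubiquitinase USP33 at 0.93, KRBA2 at 1.03 and the zinc finger gene JAZF1 at 1.24, and these 4 had positive values in both fits.

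On the lower side the first gene was TSHZ2, a zinc finger transcription factor of the teashirt family. It was at 0 to 0.290 CPM in 1-pellet clones, which was 0 to 4 reads per clone and 15 reads in all 6, and at 0.763 to 9.27 CPM in 3-pellet clones, which was 12 to 148 reads per clone and 326 in all 8. The groups did not overlap, and the lowest 3-pellet clones were O, E and C. TSHZ2 passed the expression filter only through the 3-pellet clones, so its low p and lack of overlap are not separate support. The fitted log2 fold change of -3.91 ± 0.74 (SE) rests on few reads and depends on the prior count, and it was -4.43 ± 0.74 without L, G, C and O. Most of the others had smaller fold changes, and these were smaller again without the cycling clones. CLDN15, a tight junction claudin, was at -2.12 ± 0.45 (SE) and at -1.08 ± 0.29 without L, G, C and O, SMAD9 at -1.15 and -0.65, and LIF at -2.93 and -1.17. SRGAP1, a GTPase activator of the Slit and Robo pathway, was at -0.76, TKT, the transketolase of the pentose phosphate pathway, at -0.61, and CACHD1, MAPKBP1, PRR14L, ANKRD13A and ERC1 between -0.69 and -0.35. DESeq2 called all 24 of these genes and edgeR none.

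**Figure D4:**
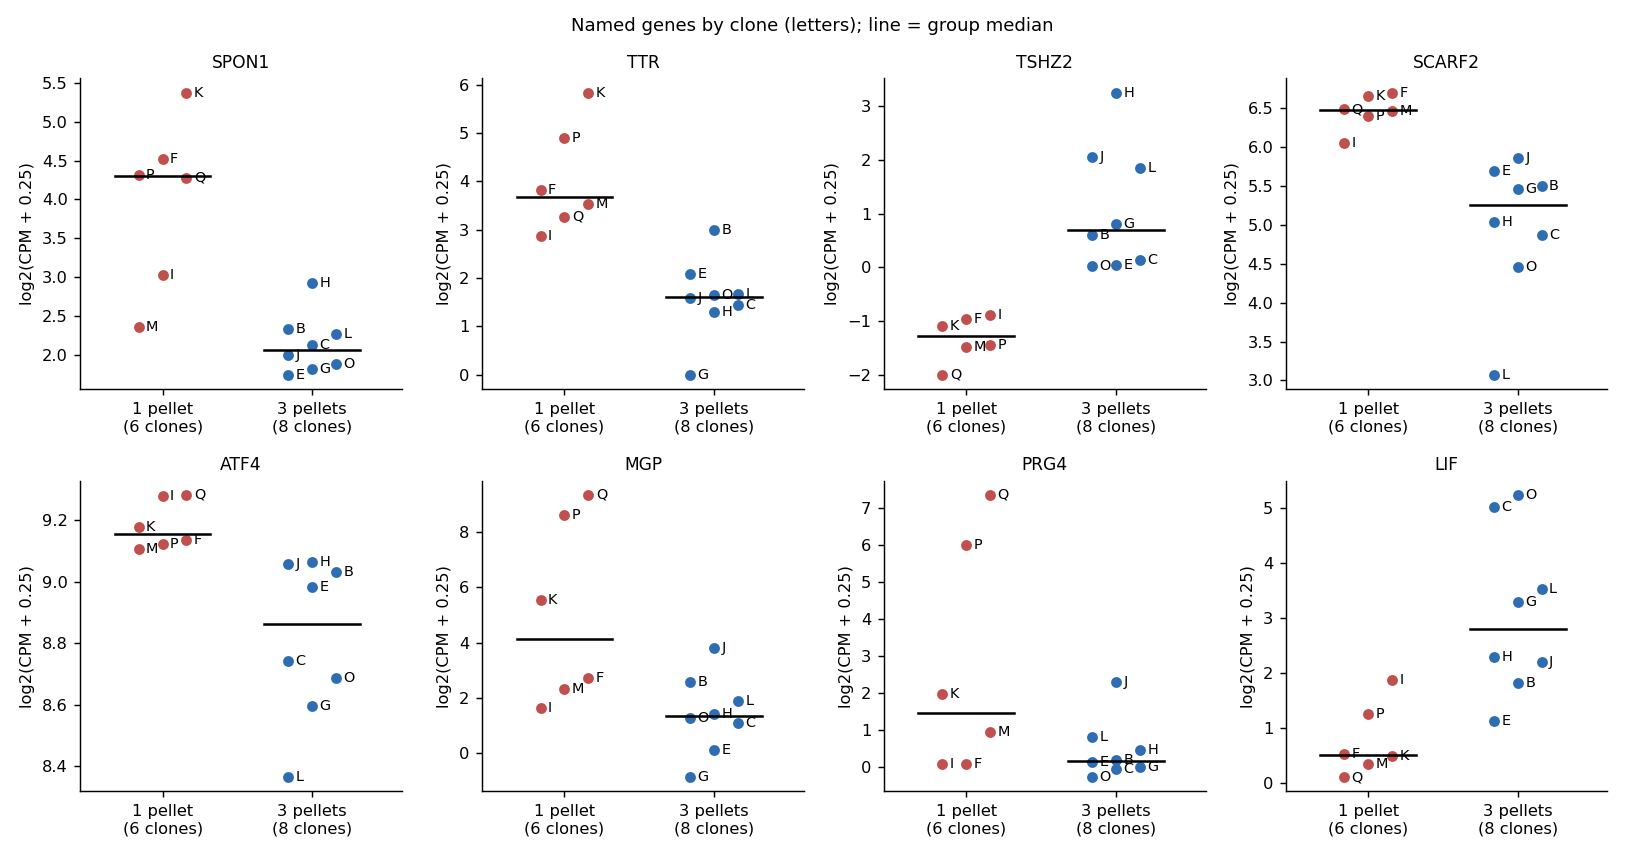
Log2(CPM + 0.25) of 8 named genes in the 6 clones with 1 pellet (red) and the 8 with 3 pellets (blue), 1 point per clone with its letter and a line at the group median. TSHZ2, SCARF2 and ATF4 do not overlap between the groups, MGP and PRG4 are highest in P and Q, and LIF is highest in C and O.

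Few genes separated the groups in every clone. Of the 10968 tested, 9 were higher (0.0821%) and 1 was lower (0.00912%) in all 1-pellet clones than in all 3-pellet clones. TSHZ2, which passed the expression filter only through the 3-pellet clones, was the lower one. The higher ones, of which NUDT7, BOLA, SCLY, CDC37L1 and TP53I3 were named after their values were seen, were KRBA2, JSP.1, NUDT7, SCARF2, BOLA, SCLY, CDC37L1, TP53I3 and ATF4. SCARF2, a scavenger receptor family member, was at 66.5, 88.8 and 104 CPM against 8.15, 38.2 and 57.7 CPM, a log2 fold change of 1.31 ± 0.34 (SE), and 0.89 ± 0.21 without L, G, C and O. The MHC class I genes named BOLA and JSP.1 in the files were at 192, 221 and 248 against 102, 146 and 191 CPM, and at 10.3, 14.1 and 19.3 against 3.27, 7.52 and 10.02 CPM. MHC class I genes are near-identical copies, so that reads may be lost or split among them and both values are uncertain. TP53I3, a p53-induced oxidoreductase, was at 3.99, 4.76 and 5.997 CPM against 1.64, 3.36 and 3.95 CPM. The gaps between the groups were small for most of the 10: the lowest 1-pellet and the highest 3-pellet clone of CDC37L1 were at 19.11 and 19.04 CPM, and those of BOLA at 192 and 191 CPM.

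Taken over the whole transcriptome, the groups were intermixed. The first principal component of scaled log2(CPM + 0.25) values held 34.3% of the variance over 11389 genes and had mean scores of -33.8 ± 36.8 (SD, n = 6) in 1-pellet and 25.4 ± 67.6 (SD, n = 8) in 3-pellet clones. The difference of -59.2 did not exceed the spread (exact permutation test, two-sided, p = 0.0799, adjusted p = 0.315 over 5 components). L, O, C and G had the 4 highest scores, and E and B lay beside the 1-pellet clones F and M. Without E or without B it was -74.3 (exact permutation p = 0.0297) or -70.4 (exact permutation p = 0.0385), before adjustment. The second component, 19.4% of the variance, set P and Q apart from the rest and gave an exact permutation p of 0.295 between the groups. The nearest clone by distance in log2 CPM was of the same group for 8 of the 14. The mean distance was 148 among 1-pellet clones, 142 among 3-pellet clones and 152 between the groups.

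**Figure D5:**
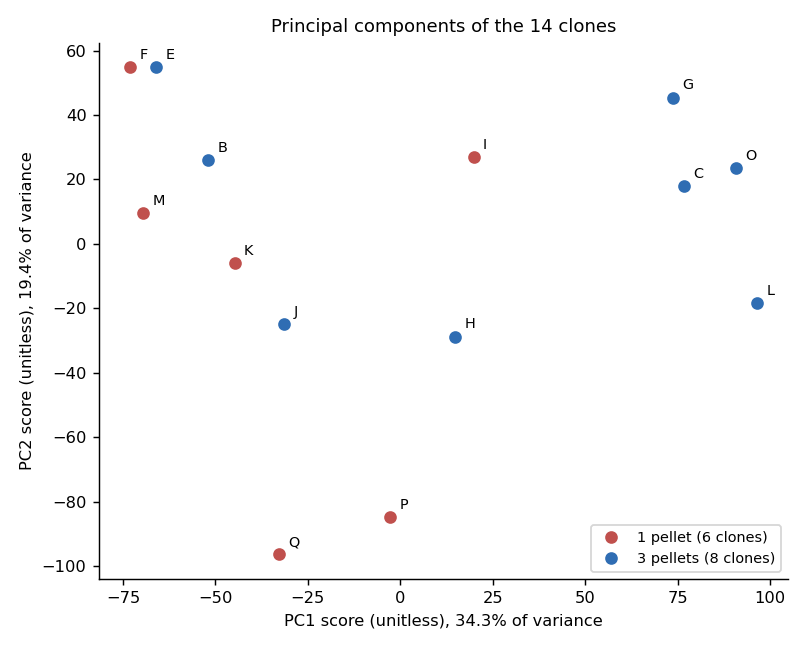
Scores on the first (x axis, 34.3% of variance) and second (y axis, 19.4%) principal components, in units of the score, for the 6 clones with 1 pellet (red) and the 8 with 3 pellets (blue). G, C, O and L lie at the right, P and Q at the bottom, and the other clones of both groups are mixed.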

How the data were processed

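The authors sequenced polyadenylated RNA of 17 clones and 1 uncloned population (single-end, 50 bases), aligned them to bosTau7 with STAR 2.3.0e and counted reads with HTSeq on RefSeq annotation release 103. The deposited values are raw counts per gene symbol, without normalization. Lines naming no gene were left out; 19.2% to 24.8% of reads lay outside genes in the 14 clones compared. Of 16989 symbols, 91.1% match the ARS-UCD2.0 RefSeq table; none of its coordinates was used, and no sequence is printed.

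The 14 clones were compared with edgeR 4.0.16 in R 4.3.3 (TMM, filterByExpr, two-sided quasi-likelihood test, Benjamini-Hochberg over all genes). The alternatives included DESeq2 1.42.0, limma-voom 3.58.1, other scalings and filters, and fits without single clones. The fit without O, P and Q was chosen after seeing the data. Scripts were tested on simulated data. Single values were tested by exact permutation. CPM used totals on genes, with 0.25 added before logs.

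The clones, the 31 gene lists and the tests were chosen with earlier results of these data known. Named genes were the 12 smallest p in each direction, fixed members of each list, up to 3 genes a direction with the largest fold change among groups without overlap, and MKI67, ACAN, COL2A1 and MMP13; list members named beyond these were chosen after their values were seen. A log2 fold change within 1 SE of 0 was taken as having no direction when settings were compared. The labels name no batch and no donor per clone, and 1 library per clone leaves technical error unmeasured; intervals for a count of 0 cover counting error only.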

Additional observations from a re-analysis of the deposited data

Results flagged for a closer look

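Dixon's gap ratio was taken for log2 CPM of the named genes, the first component score and reads on genes. Chance alone gives about 1 group in 20, and fewer were seen here. In 8 of 272 groups of clones, 1 clone lay far from the others of its group. Among 1-pellet clones these were I, lowest for CTGF (gap ratio 0.688), M, highest for ALPL, the alkaline phosphatase of bone (0.728), K, lowest for SPP1 or osteopontin (0.648), and F, lowest for MMP14 (0.668). Among 3-pellet clones they were J, highest for PRG4 (0.576), L, highest for SPP1 (0.612), E, highest for MMP2 (0.616), and H, highest for HOXC10 (0.607).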

How the results depend on the processing

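No paired analysis was possible because each clone is a separate colony and its number within a group only names it. The count of genes called by edgeR was 0 under every scaling, filter and sample set tried except without clone M, which called 1 (range over single clones left out 0 to 1), and DESeq2 called 55. Genes with an unadjusted p under 0.05 numbered 251 without L, G, C and O, 564 with MKI67 as a covariate, 958 without O, P and Q, and 1148 (without Q) to 2579 (without E) over single clones left out. Mitosis genes lower at that threshold numbered 0 without L, G, C and O, 0 with MKI67, 10 without P and Q, 1 without O, P and Q, 8 by limma-voom and 25 to 50 over single clones. Replication genes numbered 0, 0, 9, 0 and 1 in the same order, 16 with D joined to the 3-pellet clones and 3 to 32 over single clones. MKI67 is itself a mitosis gene and was highest in L, G, C and O, so fitting it as a covariate had to lessen both counts. Lysosome genes higher numbered 0 without L, G, C and O, 1 with MKI67, 5 without P and Q, 2 without O, P and Q, 4 with D joined and 3 to 14 over single clones. The difference on the first component, refitted each time with MKI67 loading positively, was -74.3 to -49.3 over single clones left out, and 19.9 without L, G, C and O, where the component may be another axis. Values of opposite sign were MCM2 0.21, PCNA 0.21, TYMS 0.13 and CCNA2 0.24 with MKI67, DKK1 1.14 without L, G, C and O, and IFIT3 -0.63 without P and Q and -0.68 without O, P and Q. ACAN and COL2A1, within 1 SE of 0 over all clones, are not counted here. Both were positive without L, G, C and O and negative without P and Q. The causes were not tested.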

Other observations

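The 4 libraries outside the comparison held values on both sides of it. Clone D, with 2 pellets, had MKI67 at 54.9 CPM, TSHZ2 at 0.174 CPM, SPON1 at 35.6 CPM and SCARF2 at 112 CPM. Its TSHZ2, SPON1 and SCARF2 levels were outside the range of the 3-pellet clones. Clone A had MKI67 at 84.3 CPM, TSHZ2 at 0.487 CPM and SPON1 at 3.17 CPM. Clone N had PRG4 at 602 CPM and MGP at 410 CPM, as P and Q had high levels of both, and TSHZ2 at 0.290 CPM. The heterogeneous population had the lowest MKI67 of the series, 17.6 CPM, and lay below every 1-pellet clone in 41 of the 50 mitosis genes, with TSHZ2 at 1.12 CPM.

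Immunoglobulin family gene IGSF9B, named here after its values were seen, had a log2 fold change of -5.10 ± 1.31 (SE), with 0.0726 to 0.652 CPM in 1-pellet clones and 0.258 to 57.8 CPM in 3-pellet clones, so that the groups overlapped. IGSF9B also passed the expression filter only through the 3-pellet clones. APOE, the lipid carrier apolipoprotein E, had 44.6, 80.2 and 112 CPM in 1-pellet and 22.6, 35.0 and 58.7 CPM in 3-pellet clones, and GPX3, the secreted glutathione peroxidase, had 2.33, 13.5 and 140 CPM against 1.43, 3.38 and 7.85 CPM. DESeq2 called all 3 genes, and edgeR called none of them.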
